A study of Mus musculus with 7 samples.

Results

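Klf2, Klf4 and Klf5 are Krüppel-like zinc-finger transcription factors of the naive pluripotency network, and the sites described here are the 21 of 75880 listed ATAC-seq sites whose midpoint lies within 100 kb of the curated RefSeq transcription start site (TSS) of one of these 3 genes. Klf2 had 5 sites, Klf4 had 6 and Klf5 had 10, and no site was shared between them. Position alone decided which sites belong to a gene, while the 3 genes themselves were picked with earlier results of these data known. Chromatin accessibility was measured in day 2 epiblast-like cells (EpiLCs), which model the post-implantation epiblast, as 3 independent differentiations of WT cells and 3 of Smad2/3 double-knockout (DKO) cells, with 1 library of Tn5-treated WT EpiLC genomic DNA as a control. WT was the ESC line CCE, and DKO was the single clone KT15.1F6, made by deleting exon 1 of Smad3 in Smad2tm1Rob/tm1Rob ESCs, both on the 129/Sv//Ev background, so that clone, line and genotype cannot be told apart. All cells were kept as ESCs with LIF, PD0325091 and CHIR99021 and then grown for 48 h with 12 ng/ml Fgf2 and 20 ng/ml activin A, a ligand that signals through Smad2 and Smad3.

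The 3 factors bind GC-rich and CACCC-type DNA and act redundantly to keep ESCs in the naive state. Klf4 is a target of LIF and Stat3 signaling, Klf2 is supported by inhibition of Mek, and Klf5 is also needed in the early trophectoderm. Their expression declines as cells leave the naive state, and the comparison asks how accessibility around them stood in EpiLCs without Smad2/3, the effectors of Nodal and activin signaling. In ATAC-seq, the transposase Tn5 inserts adapters into open DNA, so reads gather at accessible promoters and enhancers.

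For each site the authors' table gives a concentration, the log2 of the mean normalized reads of the 3 libraries of a genotype. A concentration of 4 stands for 16 reads. Single libraries are not in the table. Sequencing depth and the variation among the 3 differentiations are thus unknown here, and no difference given below has a test or an error of its own. A difference is the DKO minus the WT concentration, and a site is called higher or lower in DKO past a fold of 1.5, the fold used in the study, which is 0.585 on the log2 scale. Reads are averages over many cells, so more cells with an open site and more frequent cutting per cell cannot be told apart. At the deleted gene, the site spanning the Smad3 TSS, with its midpoint 221 bp upstream, had a concentration of 5.42 in WT and -0.10, the lowest value listed, in DKO. Promoter sites within 1 kb of the TSS were listed for 3 of 4 epiblast genes (Pou5f1, Fgf5 and Dnmt3b, WT concentrations of 5.66 to 7.71). The nearest Otx2 site had its midpoint 1003 bp from a TSS, just past that limit, with a WT concentration of 5.86. Sites within 1 kb were listed for 4 of 4 genes of other lineages (Gata6, Sox17, Cdx2 and Eomes, 6.91 to 8.69), so promoter accessibility did not set the cell types apart.

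Sequence is shown for the 4 sites that were higher in DKO past the fold, and for the Klf5 site with the lowest difference. The 17 sites within the fold had a median difference of 0.22. Each line is the central 300 bases on the plus strand of GRCm38.p6, the assembly of mm10, and capitals mark a match to any motif that was searched.
Klf2 site 2717 bp upstream, chr8:72316196-72316495: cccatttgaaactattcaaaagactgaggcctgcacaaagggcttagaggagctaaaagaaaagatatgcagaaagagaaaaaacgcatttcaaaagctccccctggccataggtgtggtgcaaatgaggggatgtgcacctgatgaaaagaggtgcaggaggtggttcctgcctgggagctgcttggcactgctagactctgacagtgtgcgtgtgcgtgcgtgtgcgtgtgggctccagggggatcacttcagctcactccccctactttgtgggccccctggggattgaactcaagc
Klf4 site 68040 bp downstream, chr4:55464286-55464585: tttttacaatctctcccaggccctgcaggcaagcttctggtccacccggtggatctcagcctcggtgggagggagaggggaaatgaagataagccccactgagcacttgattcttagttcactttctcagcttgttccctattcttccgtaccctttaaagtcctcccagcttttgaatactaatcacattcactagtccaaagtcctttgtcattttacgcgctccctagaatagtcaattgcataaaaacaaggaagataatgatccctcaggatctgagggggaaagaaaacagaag
Klf5 site 6346 bp upstream, chr14:99292196-99292495: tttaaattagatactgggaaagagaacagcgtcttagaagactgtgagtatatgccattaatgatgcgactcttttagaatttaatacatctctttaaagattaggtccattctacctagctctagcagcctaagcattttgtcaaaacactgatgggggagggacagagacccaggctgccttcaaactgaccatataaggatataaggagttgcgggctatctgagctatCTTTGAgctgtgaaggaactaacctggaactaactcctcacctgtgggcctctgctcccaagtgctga
Klf5 site 26104 bp downstream, chr14:99324646-99324945: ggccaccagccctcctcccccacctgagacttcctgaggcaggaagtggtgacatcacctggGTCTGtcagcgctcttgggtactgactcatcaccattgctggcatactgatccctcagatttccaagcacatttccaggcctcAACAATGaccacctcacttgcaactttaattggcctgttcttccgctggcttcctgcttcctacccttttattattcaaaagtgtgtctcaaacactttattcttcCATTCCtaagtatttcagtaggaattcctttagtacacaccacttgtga
Klf5 site 22329 bp downstream, chr14:99320871-99321170: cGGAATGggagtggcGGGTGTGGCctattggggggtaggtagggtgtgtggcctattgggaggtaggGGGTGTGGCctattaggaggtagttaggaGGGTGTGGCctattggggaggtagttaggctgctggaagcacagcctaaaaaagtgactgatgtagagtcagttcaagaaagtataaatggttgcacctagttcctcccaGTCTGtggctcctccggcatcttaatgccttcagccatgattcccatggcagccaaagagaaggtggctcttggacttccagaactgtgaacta

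The motifs, searched on both strands, were ATGCAAAT for the octamer bound by Oct4 and Oct6, CATTGTT for Sox factors, GGATTA for Otx2, TGTGGATT for Foxh1, CAGAC for Smads, TGTTTAC for Foxd3, CTTTGA for Tcf factors, GGAATG for Tead factors, TCAAGGTCA for Esrrb, TCAAGGCCA for Nr5a2, GGGTGTGGC and GGGCGTGGC for Klf factors, GGGCGGGGC for the GC box, TTCCNGGAA for Stat factors and GCCNNNGGC for Tfap2 factors. The Esrrb and Nr5a2 strings are alike except at 1 base, and the GC box resembles the Klf strings. The windows of the Klf2 site and of the Klf4 site held none of these letters. The Klf5 site 6346 bp upstream held CTTTGA once, which 18% of all listed sites hold. The Klf5 site 26104 bp downstream held the Sox string (4.29% of all sites), the Smad string (52.5%) and the Tead string (17.6%). The Klf5 site with the lowest difference also held the Smad and the Tead string, and it held GGGTGTGGC 3 times. At least 1 Klf string was present in 2.95% of all sites and in 3 of the 21 Klf sites, the others being the Klf4 sites 1905 and 17515 bp downstream, and 3 or more in 0.174% of all sites, a count made after the repeat had been seen. A match describes the letters of the window and not binding.

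Across the 3 loci, accessibility was higher in DKO past the fold at 4 of 21 sites (19.0%), where 8.51% of all listed sites were. It was lower past the fold at 0 of 21, where 16.0% of all listed sites were. The Klf sites were stronger than the table as a whole, with a median WT concentration of 5.89 against 5.06. Over all sites both shares fall with level, as given below. The median difference was 0.28, with quartiles of 0.06 and 0.36, while the median of all listed sites was -0.08, with quartiles of -0.39 and 0.20. Taken only within 25 kb of the TSSs, the Klf sites had a median of 0.08, with 2 higher of 11 sites. Of the 21 sites, 16 had a higher concentration in DKO and 5 a lower one, and 41.6% of all listed sites had a higher one. The 4 sites past the fold all lay over 1 kb from any curated TSS, and 0 of the 6 sites within 1 kb of one passed. Among all sites over 1 kb from a TSS, 9.70% were higher and 18.9% lower past the fold, and among those within 1 kb, 3.69% were higher and 4.17% lower.

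**Figure D1:**
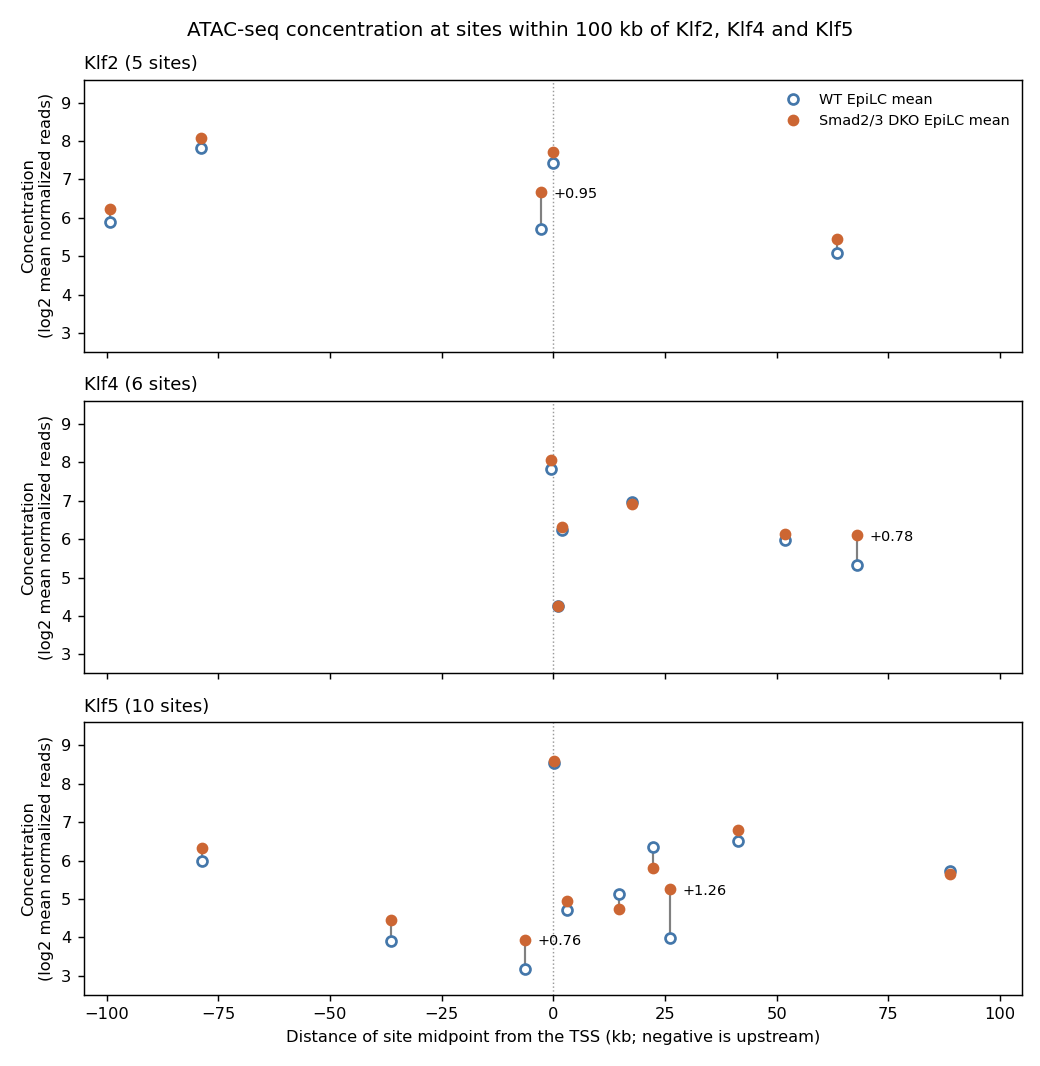
Concentration (log2 mean normalized reads) of each site in WT (open circles) and Smad2/3 DKO EpiLCs (filled circles) against the distance of its midpoint from the TSS in kb, for Klf2, Klf4 and Klf5. Each point is the authors' mean of 3 libraries with no error available, and numbers mark the differences of the 4 sites past a fold of 1.5, which are 0.95 at Klf2, 0.78 at Klf4, and 0.76 and 1.26 at Klf5.

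Klf2 (gene 16598, chromosome 8, 72319062 to 72321654, plus strand of mm10) had 1 site past the fold. It is intergenic, spans 72316070 to 72316620 and has its midpoint 2717 bp before the TSS. Its concentration was 5.72 in WT and 6.67 in DKO, a mean of 52.7 against 102 normalized reads. The difference was 0.95, a fold of 1.93. A difference at least as high was found at 3.48% of all listed sites, and at 0.619% of the 6136 sites whose concentration over both genotypes lay within 0.25 of it. The site is the only one listed between the promoter site and the Ap1m1 promoter, from which 75470 bp separate it, and it lies 2000 bp from the promoter site.

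The Klf2 promoter site (72318620 to 72319460) spans the TSS and had concentrations of 7.43 in WT and 7.71 in DKO, a difference of 0.28 that does not pass the fold. Such a difference or a higher one was found at 15.0% of the 15001 sites within 1 kb of a curated TSS. The upstream site carried 46.7% of the reads per length of its promoter in WT and 74.3% in DKO, a ratio within 1 locus that a common scaling of the libraries leaves as it is. In reads per 100 bp, the upstream site stood at 9.58 in WT and 18.5 in DKO and the promoter site at 20.5 and 24.9. The promoter sequence held in RefSeq's table for Klf2, 250 bases before to 50 after the TSS, has the GC box GGGCGGGGC at 2 positions. Of 32851 promoters, 11.0% have it at 1 or more positions, and the share with 2 or more was not counted.
Klf2 promoter, chr8:72318812-72319111, plus strand of GRCm38.p6, capitals marking the GC boxes: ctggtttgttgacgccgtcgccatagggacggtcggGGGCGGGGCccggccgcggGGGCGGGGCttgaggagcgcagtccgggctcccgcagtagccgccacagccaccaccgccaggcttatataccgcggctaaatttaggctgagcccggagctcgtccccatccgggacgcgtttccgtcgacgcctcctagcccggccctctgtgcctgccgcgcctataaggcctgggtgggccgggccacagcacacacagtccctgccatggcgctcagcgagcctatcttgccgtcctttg

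The other 3 sites around Klf2 lie at or within other genes and were also higher in DKO, within the fold. The Fam32a promoter site (72219620 to 72219940, midpoint in the 5′ UTR in exon 1) had concentrations of 5.89 and 6.22 in WT and DKO, a difference of 0.33. The site at the promoter of Ap1m1 (72239650 to 72240600), which encodes a subunit of a clathrin adaptor complex, had 7.81 and 8.09, a difference of 0.28. A site in intron 11 of Eps15l1 (72382420 to 72382690), an endocytosis gene, had 5.08 and 5.44, a difference of 0.36. All 5 sites of the window had a higher value in DKO, and the 4 others lay between 0.28 and 0.36, so that the site upstream of Klf2 exceeded its own promoter by 0.67 on the log2 scale.

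Klf4 (gene 16600, chromosome 4, 55527137 to 55532475, minus strand) also had 1 site past the fold, and it was the one farthest from the gene. The site from 55464200 to 55464670 is intergenic and centred 68040 bp downstream of the TSS, and the nearest curated TSS is that of Gm12505, 45593 bp away. Its concentration was 5.32 in WT and 6.10 in DKO, a mean of 39.9 against 68.6 normalized reads. The difference of 0.78 is a fold of 1.72. A difference at least as high was found at 5.30% of all listed sites and at 2.00% of the 7904 sites of like concentration. With 8 reads added to both means, the difference of this site was 0.68, still past the fold. Enhancers far downstream of Klf4 are known in ESCs, and whether this site is one of them was not tested.

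The site next to it, 51830 bp downstream of the TSS (55480370 to 55480920) and 15700 bp away, had concentrations of 5.97 in WT and 6.14 in DKO, a difference of 0.17. The next, 17515 bp downstream (55514630 to 55515290), had 6.97 and 6.91, a difference of -0.06, and had the most reads per length of the 6 sites in both genotypes, at 19.0 and 18.2 per 100 bp. These nearer distal sites differed by less than the fold, and a difference of 0.17 or more was found at 27.4% of all listed sites. Within the gene, a site centred in coding exon 3 (55530160 to 55530980) had 6.24 and 6.32, and a site in intron 2 (55531290 to 55531660), 1000 bp downstream of the TSS, had 4.27 and 4.26.

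The Klf4 promoter site (55532210 to 55533980), the widest of the 21 at 1770 bp, had concentrations of 7.83 in WT and 8.07 in DKO, a difference of 0.24. Of the sites within 1 kb of a curated TSS, 18.3% had a difference at least as high. The site 68040 bp downstream had 66.1% of the promoter's reads per length in WT and 96.1% in DKO. In reads, without regard to length, it had 17.6% and 25.5%, since it is 470 bp wide against 1770 bp. Within 100 kb no other gene has a curated TSS. The promoter sequence, on the minus strand, contains 3 GC boxes, of which 2 overlap, and 1 Tfap2 match, GCCGCCGGC. Any form of the Tfap2 pattern GCCNNNGGC was present in 16.6% of promoters.
Klf4 promoter, chr4:55532426-55532725, minus strand of GRCm38.p6, capitals marking the GC boxes and the Tfap2 match: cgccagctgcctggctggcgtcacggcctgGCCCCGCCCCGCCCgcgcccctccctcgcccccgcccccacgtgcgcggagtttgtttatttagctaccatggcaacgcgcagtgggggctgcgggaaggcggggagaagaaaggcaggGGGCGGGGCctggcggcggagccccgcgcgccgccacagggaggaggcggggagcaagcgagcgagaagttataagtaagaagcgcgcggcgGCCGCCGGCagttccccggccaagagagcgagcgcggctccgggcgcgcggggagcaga

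Klf5 (gene 12224, chromosome 14, 99298691 to 99313412, plus strand) had 2 sites past the fold among its 10. The larger difference, and the largest of the 21 sites, was at an intergenic site from 99324640 to 99324950, centred 26104 bp downstream of the TSS and beyond the 3′ end of the gene. It had a concentration of 3.99 in WT and 5.25 in DKO, a mean of 15.9 against 38.1 normalized reads. The difference of 1.26 is a fold of 2.39, and 1.68% of all listed sites and 0.619% of the 11149 sites of like concentration had a difference at least as high. It was the only one of the 21 past a fold of 2. With 8 reads added to both means, its difference was 0.947, and none of the 21 passed a fold of 2. With differences centred on the median of all sites, the Klf2 upstream site, at 1.03, was past a fold of 2 as well.

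The second site lies upstream, from 99292200 to 99292490, centred 6346 bp from the TSS. It was the weakest of the 21, with a concentration of 3.18 in WT and 3.94 in DKO, a mean of 9.06 against 15.3 normalized reads. Its difference of 0.76 lies inside the spread of weak sites, since 12.6% of the 8247 sites of like concentration had one at least as high and 5 to 95% of them ranged from -1.53 to 1.14. With 8 reads added to both means, the difference was 0.45, under the fold.

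Opposite values stood side by side downstream of Klf5. The site from 99320790 to 99321250, centred 22329 bp downstream, is 3390 bp from the site with the largest difference and had the lowest difference of the 21. Its concentration was 6.36 in WT and 5.80 in DKO, a mean of 82.1 against 55.7 reads and a difference of -0.56, just short of the fold. Of all listed sites 17.1% had a difference that low or lower, and of the 6678 sites of like concentration 10.3%. The differences of these neighbours lie 1.82 apart on the log2 scale. Over the whole table, 3.30% of 15824 pairs of adjacent sites within 5 kb of each other lay that far apart or farther, and the median pair lay 0.40 apart. Of those 522 pairs, 355 had opposite signs. The Klf5 pair was picked because it joins the lowest and the highest difference, and pairs were not matched for level, so the share only describes it. In WT the inner site carried 17.9 reads per 100 bp and the outer one 5.13, and in DKO they were at 12.1 and 12.3.

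At the Klf5 promoter, the site from 99298300 to 99299360 had the highest concentration of the 21, 8.54 in WT and 8.60 in DKO, a difference of 0.06. It also had the most reads per length of the 3 promoters, at 35.1 and 36.6 per 100 bp, against 20.5 and 24.9 at Klf2 and 12.9 and 15.2 at Klf4. By reads per length, the order Klf5, Klf2, Klf4 was the same in both genotypes. By concentration, Klf4 (7.83 and 8.07) stood above Klf2 (7.43 and 7.71), its site being 1770 bp wide against 840 bp. Without values per library it is not known which neighbours in either order differ beyond their spread. Within the gene, a site in coding exon 2 (99301550 to 99301800) had 4.72 and 4.94, and a site in coding exon 4 (99313080 to 99313500) had 5.13 and 4.74, a difference of -0.39.

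The remaining Klf5 sites were within the fold. A weak intergenic site 36441 bp upstream (99262120 to 99262380) had concentrations of 3.89 in WT and 4.44 in DKO, and its difference of 0.55 lies just under the fold. A site 78696 bp upstream (99219700 to 99220290), in intron 15 of the neighbouring gene Pibf1, had 6.00 and 6.33. Downstream, a site at 41414 bp (99339750 to 99340460) had 6.51 and 6.79, and one at 88814 bp (99387210 to 99387800) had 5.74 and 5.64. Of the 10 Klf5 sites, 7 had a higher and 3 a lower value in DKO.

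**Figure D2:**
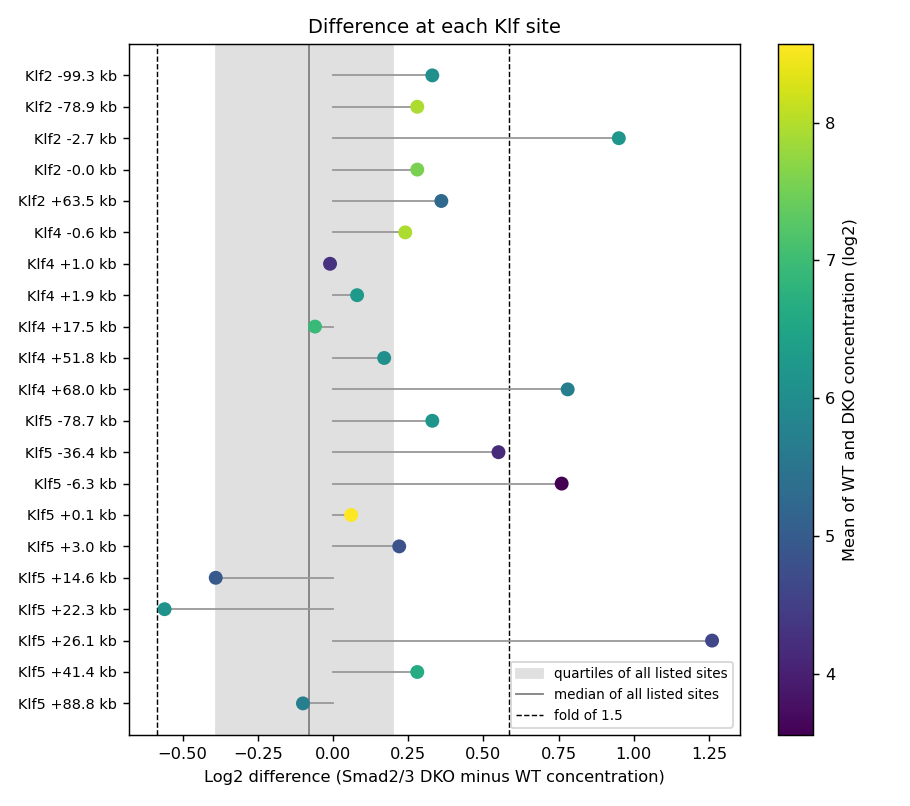
Log2 difference (DKO minus WT concentration) of each of the 21 sites, named by gene and distance from the TSS in kb and coloured by the mean of both concentrations. The grey band spans the quartiles of all listed sites (-0.39 to 0.20) around their median of -0.08, and 4 points lie beyond the dashed line at a fold of 1.5 while none lies below the lower one.

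The size of a difference went with the level of the site over the whole table. Sites with a concentration over both genotypes under 4 had differences with an SD of 0.97, and 20.5% of them were higher in DKO past the fold. From 4 to under 5 the share was 9.38%, from 5 to under 6 it was 4.95%, from 6 to under 7 it was 2.33%, and at 7 or more it was 0.691%, with an SD of 0.25. The shares lower in DKO in these classes, from the weakest to the strongest, were 29.8%, 19.1%, 12.2%, 8.01% and 2.40%. The Klf5 site 6346 bp upstream belongs to the first class, the Klf5 site 26104 bp downstream to the second, the Klf4 site to the third and the Klf2 site to the fourth. The 3 promoter sites belong to the highest class, in which differences of 0.28, 0.24 and 0.06 lie between the 5 and 95% points of sites of like concentration (-0.46 to 0.35 around the Klf2 promoter, -0.40 to 0.34 around Klf4 and -0.36 to 0.26 around Klf5).

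**Figure D3:**
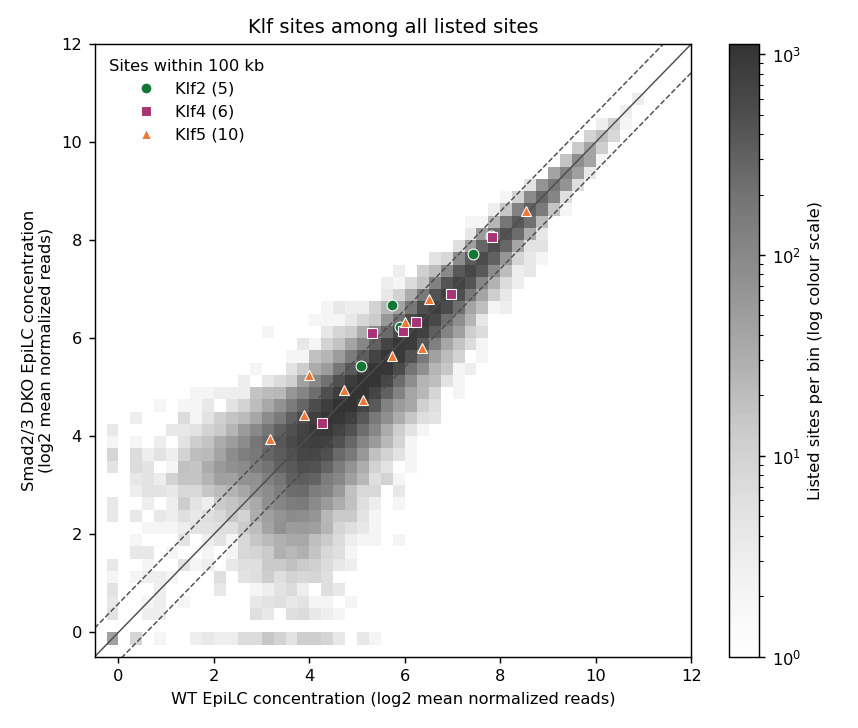
Smad2/3 DKO against WT concentration (log2 mean normalized reads) of the 21 Klf sites, coloured by gene, over the number of listed sites per bin in grey on a log colour scale. The solid line marks equal values and the dashed lines a fold of 1.5, and the cloud of all 75880 sites narrows from an SD of the difference of 0.97 below a concentration of 4 to 0.25 at 7 or more.

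Summed over the sites of a locus, normalized reads were 543 in WT and 702 in DKO over the 2930 bp covered at Klf2, a ratio of 1.29, but the 3 sites at Ap1m1, Fam32a and Eps15l1 held 58.5% of the WT sum and 55.6% of the DKO sum. At Klf4 they were 550 and 627 over 4640 bp, a ratio of 1.14, and at Klf5 764 and 817 over 4940 bp, a ratio of 1.07. The ratio over all listed sites was 0.954. The 3 medians of the difference were 0.33 at Klf2, 0.125 at Klf4 and 0.25 at Klf5. The promoter site of the gene itself supplied 31.8% of the WT sum at Klf2, 41.3% at Klf4 and 48.7% at Klf5. The Klf2 upstream site made up 9.71% of its locus sum in WT and 14.5% in DKO.

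The central 300 bases of the 4 sites past the fold had a GC content of 43.3 to 53.0%, with a median of 47.0%. All 21 sites ranged from 40.3 to 74.0%, with a median of 57.3%, and all listed sites had a median of 51.0%. None of the 21 windows held the octamer, the Otx2, Foxh1, Foxd3, Esrrb, Nr5a2 or Stat string. Over all listed sites these were in 3.16%, 8.71%, 1.07%, 4.51%, 0.494%, 0.648% and 1.09%. The Smad string was in 11 of the 21 windows and 1 of the 4 past the fold, at 52.5% of all sites, and the Tead string in 8 and 1, at 17.6%. Strings of fixed letters leave out weaker forms of each motif.

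Lists of related genes were read in the same way, within 100 kb of their TSSs. The 14 other Klf family genes had 175 sites, of which 18 were higher and 18 lower past the fold, with a median difference of -0.01. The 10 naive network genes beyond the Klf factors (Esrrb, Tfcp2l1, Tbx3, Nr0b1, Zfp42, Prdm14, Stat3, Dppa3, Tcl1 and Nr5a2) had 65 sites, with 11 higher, 11 lower and a median of -0.01. The 4 core factors Pou5f1, Sox2, Nanog and Sall4 had 46 sites, with 6 higher, 6 lower and a median of 0.14. Of these, 12 sites around Nanog and Dppa3 also belong to the naive list, 1 of them higher and 1 lower past the fold, so the core and naive lists are not separate sets. The 4 primed genes Fgf5, Otx2, Pou3f1 and Foxd3 had 56 sites, with 3 higher, 17 lower and a median of -0.27. Set beside these, the Klf2, Klf4 and Klf5 sites had 4 higher, 0 lower and a median of 0.28, with no test of the difference between lists. Higher sites made up 19.0% of these 21 sites, 16.9% of the naive list and less of the other lists. Of all listed sites, 8.51% were higher and 16.0% lower. The 21 were stronger, with a median WT concentration of 5.89, against 5.39, 4.9, 4.795 and 5.33 in the lists in the order given. Both shares fall with level over all sites, and the lists were not matched for level, so their counts are not directly comparable. Among single genes of the lists, 5 of the 32 comparison genes with sites also had at least 1 higher and 0 lower sites. Klf9 had 3 higher of 14 sites and a median of 0.11, and Tbx3 had 2 higher of 4 and a median of 0.39, with 0 lower at either, and Klf6 had 5 higher and 3 lower of 19 and a median of 0.19. These genes were named after their values were seen.

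**Figure D4:**
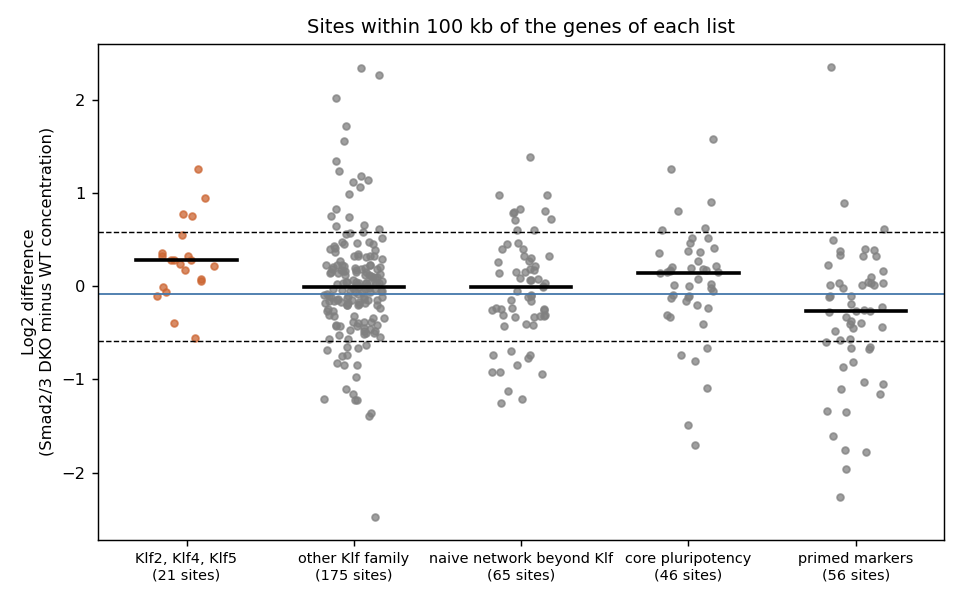
Log2 difference (DKO minus WT concentration) of every site within 100 kb of the genes of each list, with black bars at the medians (0.28, -0.01, -0.01, 0.14 and -0.27 from left to right). Dashed lines mark a fold of 1.5, the blue line the median of all listed sites (-0.08), points are spread sideways only to be seen, and 12 sites appear in both the naive and the core list.

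Within 5 kb of its own TSSs, the Klf2, Klf4 and Klf5 list had 7 sites, of which 1, upstream of Klf2, was higher past the fold and 0 were lower. Of the 21327 listed sites within 5 kb of any curated TSS, 5.22% were higher and 7.57% lower. The other Klf family genes had 1 higher of 22 sites at that distance, the naive network genes 1 higher of 12, the core factors 2 lower of 10 and the primed genes 1 lower of 7. These were Klf6 (2026 bp, difference 1.07), Nr5a2 (2588 bp, 0.98), Sox2 (1160 bp, -0.80), Nanog (194 bp, -0.74) and Foxd3 (3139 bp, -1.03). The WT concentration of 5.72 at the Klf2 site compares with 3.32 at the Klf6 site, which encodes another Krüppel-like factor, and 3.41 at Nr5a2, an orphan nuclear receptor gene of the naive state.

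Likeness to other genes was taken over 4 values, the WT and DKO concentration of the promoter site and of the nearest site 1 to 100 kb away, among 15522 genes that have both. The nearest to Klf2 was Steap2 (distance 0.20), with 7.51 and 7.85 at its promoter and 5.77 and 6.56 at its nearest site, then A630072M18Rik and Rsbn1l (0.25 each), which share their sites. Nearest to Klf4 were Dcaf13 and Slc25a32 (0.16 each), which also share theirs, and Stip1 (0.16). Nearest to Klf5 were Aldh6a1 and Lin52 (0.10 each), again with common sites, and Xkr5 (0.15). These are likenesses over 4 means and carry no error.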

How the data were processed

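ATAC-seq was performed on 3 differentiations per genotype, with 75000 cells per transposition in 2 technical replicates, and on 100 ng of Tn5-treated WT genomic DNA. Read pairs were mapped by the authors to mm10 (Bowtie2). Multi-mapping reads and those in blacklisted regions were dropped, and so were PCR duplicates (SAMtools). DANPOS2 then called sites from the triplicates against the genomic DNA control, and DiffBind gave each site's reads. Versions and normalization are not given in the sources used here, nor is a shift of read ends for Tn5. The authors deposited log2 concentrations, that is, log2 of mean normalized read numbers, for each genotype and for both together. Their fold, p-value and FDR columns hold the authors' own comparison and were not used.

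Sites, read in Python 3.11.15 with pandas 2.3.3 and numpy 2.4.6, were assigned by midpoint to TSSs of 45755 curated RefSeq transcripts on GRCm38.p6. Differences are DKO minus WT concentrations, with no pseudocount and no filter on low values. Since the table gives means per genotype, no test was run. Site coordinates are printed as deposited, in steps of 10 bp. Sequences and 14 motif classes were read from GRCm38.p6, and promoters of Klf2 and Klf4 from a RefSeq table. By rule the text names, at each Klf gene, every site past the fold, the promoter site, sites within 5 kb of the TSS, the site with the highest WT concentration and those with the highest and lowest difference, plus the 3 most similar genes and, for the comparison lists, sites past the fold within 5 kb of a TSS. The remaining Klf sites were added after their values were seen. Calculations were tested on simulated data. The members and lists were chosen with earlier results of these data known. Alternatives were other folds, centring, a minimum concentration of 4, windows of 50 and 25 kb, nearest-TSS assignment, and pseudocounts of 1 and 8.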

Additional observations from a re-analysis of the deposited data

How the results depend on the processing

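The 4 sites higher in DKO became 8 at a lower threshold of 0.32 on the log2 scale, where 2 sites were lower, and 1 at a fold of 2. By locus, the lower threshold gave 3 higher sites at Klf2 and 4 higher and 2 lower at Klf5, and a fold of 2 gave 0 at Klf2, 0 at Klf4 and 1 at Klf5. Over all listed sites, 17.3% were higher and 29.1% lower at 0.32, and 3.01% and 6.35% at a fold of 2. Within 50 kb Klf4 had 0 higher of 4 sites and the Klf2 median was 0.615. Only 2 Klf2 sites remained there, the promoter site (0.28) and the site 2717 bp upstream (0.95). Within 25 kb there were 2 higher of 11 sites in all, 0 of 4 at Klf4 and 1 of 5 at Klf5. The medians there were 0.08 over the 3 loci, 0.615 at Klf2 from the same 2 sites, and 0.06 at Klf5. Keeping only sites whose nearest curated TSS is that of the Klf gene gave 0 higher of 5 sites at Klf4. The Klf2 median was 0.615, again from the same 2 sites. Klf5 had 1 higher of 9 sites with a concentration of at least 4. With a pseudocount of 8, Klf5 had 1 higher of 10 sites, where 4.06% of all sites were higher. These windows and filters hold fewer sites by construction. Centring on the median of all sites added the Klf5 site 36441 bp upstream, for 5 higher sites, where 10.5% of all sites were higher. The other 79 counts and medians under these alternatives and a pseudocount of 1 held counts within 1.5 times and medians above 0, the lowest being 0.035 at Klf4 within 50 or 25 kb.

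No paired analysis was possible because only means per genotype, without single libraries, are in the table, and leaving out a differentiation was not run for the same reason. Differences spread more among weak sites than among strong ones, with an SD of 0.97 below a concentration of 4 and 0.25 at 7 or more, and the part of read number in this was not tested.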
